A study of Rattus norvegicus with 6 samples.

Results

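Messenger RNA of the adaptors and kinases that lead from activated receptors through Ras to the kinase ERK was measured in neonatal rat ventricular cardiomyocytes (NRVCs) cultured with or without C3a, the anaphylatoxin released when complement C3 is cleaved. The 8 genes were Shc1, Grb2, Sos1, Sos2, Ptpn11, Braf, Map2k1 and Mapk3. They were taken from the array as the probes whose accession is linked to these symbols in the RefSeq gene table for the rat. This gave 11 probes for 7 of the 8 genes, of 16569 gene symbols on the array in all. No probe accession was linked to Braf, which encodes the B-Raf kinase, and Braf was not analysed here. Where a gene had several probes, the brightest on average over the 6 arrays stood for it. The probe was thus chosen by its measured signal. The levels below come from those values and are given as a description, whereas the difference between C3a and control was not used in that choice.

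When a growth factor receptor is activated, the adaptors SHC1 and GRB2 dock on its phosphorylated tyrosines, and GRB2 brings the exchange factors SOS1 and SOS2 to the membrane, where they load Ras with GTP. The phosphatase SHP2, the product of Ptpn11, is needed for full activation of Ras. Ras then recruits Raf kinases such as B-Raf, which phosphorylate MEK1 (Map2k1), and MEK1 phosphorylates ERK1 (Mapk3), a kinase known in cardiomyocytes for its part in hypertrophic growth. Signals pass along this chain mainly by phosphorylation and by binding, which an expression array does not measure.

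The cells came from the ventricles of Sprague-Dawley rats aged 1 to 2 days, with 8 to 10 hearts combined in a preparation, and were preplated before culture in serum-free medium on collagen-coated glass. Control cultures (n = 3) received no C3a, and the C3a cultures (n = 3) received recombinant protein at 0.5 µg/ml for 12 h. Neither group carried a genetic change. Each RNA was labelled with Cy3 and hybridised to its own Agilent SurePrint G3 Rat array, and the sources used here do not say whether the cultures came from separate preparations, so that p-values measure the spread between these samples, which may be technical.

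All 6 arrays lay on 1 slide, with controls and C3a on different sides, so that position and treatment cannot be told apart. The signal is given as log2 of the background-corrected intensity minus the 75th percentile of its array, which ranged from 207 to 367 intensity units. Control replicate 2 had the highest and C3a replicate 3 the lowest of these percentiles. Control replicate 1 had the highest local background, at 47 units against 23 or 24 on the others, and 38.6% of its probes were well above background, against 53.7% to 57.3% elsewhere. Of 9 cardiomyocyte markers with a probe, 9 were well above background on all 6 arrays. The same was true of 6 of 9 fibroblast, 5 of 7 endothelial and 1 of 8 macrophage markers.

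The RefSeq promoter table (GRCr8) held 4 of the 7 measured genes, Shc1, Map2k1, Ptpn11 and Sos1, as windows from 250 bases before to 50 bases after the start site. Shc1 and Map2k1 are shown because their change with C3a, described below, lay furthest below 0. Capitals mark the GC box, GGGCGG on either strand (CCGCCC when read on the strand shown), a motif bound by Sp1-type factors. Shc1, on the plus strand, is at chr2:177138298-177138597, and Map2k1, on the minus strand, is at chr8:73650135-73650434.
Shc1: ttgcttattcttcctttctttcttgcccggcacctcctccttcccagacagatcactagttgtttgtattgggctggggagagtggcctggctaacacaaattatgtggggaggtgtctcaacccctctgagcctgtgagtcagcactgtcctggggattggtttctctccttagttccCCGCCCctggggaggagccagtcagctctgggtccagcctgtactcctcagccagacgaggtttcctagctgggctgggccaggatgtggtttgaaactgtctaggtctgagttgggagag
Map2k1: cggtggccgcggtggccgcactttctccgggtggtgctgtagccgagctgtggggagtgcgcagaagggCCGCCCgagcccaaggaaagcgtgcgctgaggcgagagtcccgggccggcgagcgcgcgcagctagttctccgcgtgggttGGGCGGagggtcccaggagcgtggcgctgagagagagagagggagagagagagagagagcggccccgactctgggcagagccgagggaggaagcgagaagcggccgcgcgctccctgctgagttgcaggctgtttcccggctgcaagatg
The Shc1 window held 1 GC box, that of Map2k1 2, that of Sos1 3 and that of Ptpn11 4, and 33.1% of all 33469 promoters in the table held at least 1. The GC content was 55.3% for Shc1 and 70.0% for Map2k1, against a median of 51.7% over the table. The cyclic AMP response element TGACGTCA (its own reverse complement) was found in 0 of the 4 windows and in 1.83% of all promoters. These matches describe the letters of the windows, and no relation to the measured change was tested.

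With C3a, the messenger RNAs of all 7 genes were found in both conditions, and in none of them was a change detected. All 7 probes were well above background on every array. The log2 fold change lay between -0.24 for Map2k1 and 0.17 for Sos2, with 5 genes above 0, 2 below and a median of 0.024. The median over all 10386 genes with a probe that passed the filter on dim probes was 0.036. At an adjusted p under 0.05 from limma, 0 of 7 members were called, beside 0% of the genes, and the smallest adjusted p among the 7 was 0.743. At an unadjusted p under 0.05 from limma, 0 of 7 were called as well, beside 5.33% of the 10386 genes. The other test run, the equal-variance test named in the methods, called 2 of 7, Shc1 and Sos2, beside 4.93% of the genes and 4.73% of all probes, and 0 of 7 after Benjamini-Hochberg adjustment. The 3 C3a arrays all lay on the same side of the 3 controls for these same 2 genes, and for 13.0% of the genes in all. Shc1 was the 1 of 7 with all C3a arrays below, beside 4.84% of the genes, and Sos2 the 1 of 7 with all above, beside 8.16%. These shares are not a like baseline, since a probe could pass the filter through 1 group alone. On the C3a arrays 23425 probes passed, and on the controls 17519, whereas all 7 members passed in both. Among the 8552 genes well above background on all 6 arrays, 163 were higher and 281 lower at an unadjusted p under 0.05 from limma. With the filter used here, these were 302 and 252 of 10386.

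**Figure D1:**
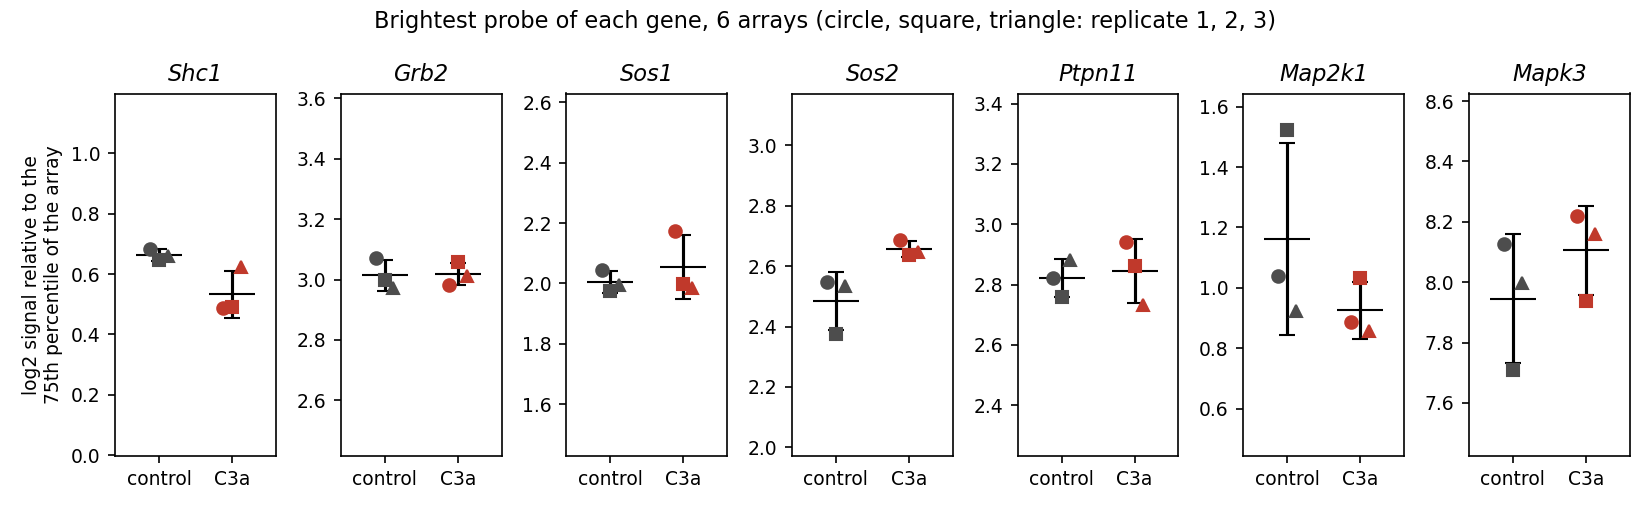
Log2 signal after scaling to the 75th percentile (vertical axis; every panel spans the same range) for the 7 genes in control (grey) and C3a (red) cultures. Points are the 6 arrays, bars the mean and SD of 3. For Shc1 the C3a points lie below and for Sos2 above all controls, and control replicate 2 stands apart for Map2k1 and Mapk3.

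Shc1, the adaptor that binds phosphorylated receptors, had a log2 signal of 0.68, 0.65 and 0.66 on control replicates 1 to 3 and 0.49, 0.49 and 0.62 on C3a replicates 1 to 3. All C3a arrays were below all controls, although C3a replicate 3 came close to the lowest control. The log2 fold change was -0.13 (95% confidence interval -0.34 to 0.084; adjusted p = 0.743 from limma), that is a signal 1.09-fold lower. Its p was 0.0470 in the unadjusted test of the methods and 0.194 in limma, unadjusted. The standard error was 0.046 from the spread of Shc1 alone, as in the methods' test, and 0.091 in limma, which shares the spread across probes. The SD of the controls was 0.019 on the log2 scale, and that of the C3a arrays 0.077.

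Grb2, the adaptor that carries the SOS proteins, had a log2 signal of 3.07, 2.999 and 2.97 on control replicates 1 to 3 and 2.98, 3.06 and 3.01 on C3a replicates 1 to 3. The groups overlapped, and the 6 values lay between 2.97 and 3.07. C3a minus control was 0.0033 on the log2 scale (95% confidence interval -0.21 to 0.21; adjusted p = 0.993 from limma), so that the interval leaves out a change beyond 1.16-fold in either direction for this probe under this scaling.

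Ptpn11, the gene for the phosphatase SHP2, had a log2 signal of 2.82, 2.76 and 2.88 on control replicates 1 to 3 and 2.94, 2.86 and 2.73 on C3a replicates 1 to 3. The highest and the lowest value were both C3a arrays. C3a minus control was 0.024 on the log2 scale (95% confidence interval -0.21 to 0.26; adjusted p = 0.949 from limma).

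The exchange factors gave Sos2 above the controls on every C3a array and Sos1 overlapping. Sos2 had a log2 signal of 2.55, 2.38 and 2.54 on control replicates 1 to 3 and 2.69, 2.64 and 2.65 on C3a replicates 1 to 3, with SDs of 0.096 in the controls and 0.026 with C3a. The log2 fold change was 0.17 (95% confidence interval -0.051 to 0.39; adjusted p = 0.743 from limma), or 1.13-fold, and the unadjusted p was 0.0403 in the test of the methods and 0.110 in limma. Sos1 had a log2 signal of 2.04, 1.97 and 2.00 on control replicates 1 to 3 and 2.18, 2.00 and 1.99 on C3a replicates 1 to 3, where C3a replicate 1 was the highest and the other C3a arrays lay among the controls. Its log2 fold change was 0.049 (95% confidence interval -0.18 to 0.28; adjusted p = 0.887 from limma). Sos2 minus Sos1 within an array, a difference that does not depend on the scaling between arrays, was 0.48 ± 0.072 (SD, n = 3) in controls and 0.60 ± 0.080 (SD, n = 3) with C3a. The 2 groups overlapped (two-sided exact permutation test, p = 0.2, where 3 against 3 cannot go below 0.1; adjusted p = 0.4 over the 2 pairs of genes compared). Within the numbered pairs of arrays, Sos2 minus Sos1 was higher with C3a in 3 of 3. The exact test that flips the signs of these differences gave p = 0.25, the lowest that 3 pairs allow.

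Map2k1, the gene for MEK1, had a log2 signal of 1.04, 1.52 and 0.92 on control replicates 1 to 3 and 0.89, 1.03 and 0.86 on C3a replicates 1 to 3. Control replicate 2 was far above the others, and the remaining 5 arrays lay between 0.86 and 1.04. The log2 fold change was -0.24 (95% confidence interval -0.63 to 0.16; adjusted p = 0.743 from limma). It ran from -0.056 without control replicate 2 to -0.36 without control replicate 3. Within the numbered pairs, C3a was lower in 3 of 3, with differences of -0.15, -0.49 and -0.067 (unadjusted p = 0.0922 from limma with the replicate block). Mapk3, the gene for ERK1, had a log2 signal of 8.13, 7.71 and 8.00 on control replicates 1 to 3 and 8.22, 7.94 and 8.16 on C3a replicates 1 to 3, and its probe gave 59189 to 76872 intensity units with no saturated spot. Here control replicate 2 was the lowest array and C3a replicate 2 the next lowest. The log2 fold change was 0.16 (95% confidence interval -0.17 to 0.49; adjusted p = 0.759 from limma). It ran from 0.043 without control replicate 2 to 0.25 without control replicate 1, and was 0.24 without C3a replicate 2. Within the numbered pairs, C3a was higher in 3 of 3, with differences of 0.091, 0.23 and 0.16 (unadjusted p = 0.125 from limma with the replicate block). Leaving out a single array breaks its pair.

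Map2k1 minus Map2k2, the gene for MEK2, differed between the groups by -0.33, from -2.45 ± 0.47 (SD, n = 3) in controls to -2.78 ± 0.14 (SD, n = 3) with C3a (two-sided exact permutation test, p = 0.4; adjusted p = 0.4 over the 2 pairs). The difference was -0.055 without control replicate 2 and -0.46 without control replicate 1 or 3. Within the numbered pairs of arrays, Map2k1 minus Map2k2 was lower with C3a in 2 of 3 (exact test flipping the signs of these differences, p = 0.5). Arrays do not compare the level of different probes, and only the change of each difference is read here.

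The signal of Map2k1 followed the overall brightness of the arrays. Over the 6 arrays, its log2 signal, already relative to the 75th percentile, correlated with the log2 of that percentile at Pearson r = 0.91 (exact permutation p = 0.00278) and Spearman rho = 0.94 (exact permutation p = 0.0167), and r was 0.82 without the 2 arrays farthest from the median, control replicate 2 and C3a replicate 3. Mapk3 ran the other way, at r = -0.91 (exact permutation p = 0.0111), a rho of -0.89 and -0.86 without these arrays. Over the 11 probes of the members, the adjusted p of the Pearson correlation was 0.0153 for Map2k1 and 0.0244 for Mapk3, and for rho it was 0.0611 and 0.0917. Brightness and signal share the same arrays, and the percentile is subtracted in the scaled value. The unscaled Mapk3 signal ran from 59189 to 76872 intensity units, whereas the percentile ran from 207 to 367, so that the subtraction itself enters the r of Mapk3. Among the 10386 genes, 9.75% had a Pearson r of at least 0.9 in size.

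For Shc1, Grb2, Sos1 and Ptpn11, the r with array brightness was between -0.41 and 0.23, and for Sos2 it was -0.85 (exact permutation p = 0.0417, adjusted p = 0.0764). Without the 2 farthest arrays r was -0.94 for Sos1 and -0.82 for Ptpn11, so these values depended on those arrays. The dimmer Ptpn11 probe gave r = -0.97 (exact permutation p = 0.00139, adjusted p = 0.0153), a rho of -1 and -0.84 without the 2 arrays. The unscaled signal of this probe ran from 237 to 265 intensity units, whereas the percentile ran from 207 to 367. The subtraction of the percentile thus sets much of this r, and the permutation p is no support for a relation with brightness. With brightness as a covariate in limma, chosen after seeing the data, the log2 fold change was 0.035 for Map2k1 (unadjusted p = 0.815 from limma), -0.056 for Mapk3 and 0.10 for Sos2, and it was -0.18 for Shc1. The part of brightness in the difference between the groups cannot be told apart from C3a on 6 arrays, since the 75th percentile was also lower on 2 of the 3 C3a arrays than on every control.

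**Figure D2:**
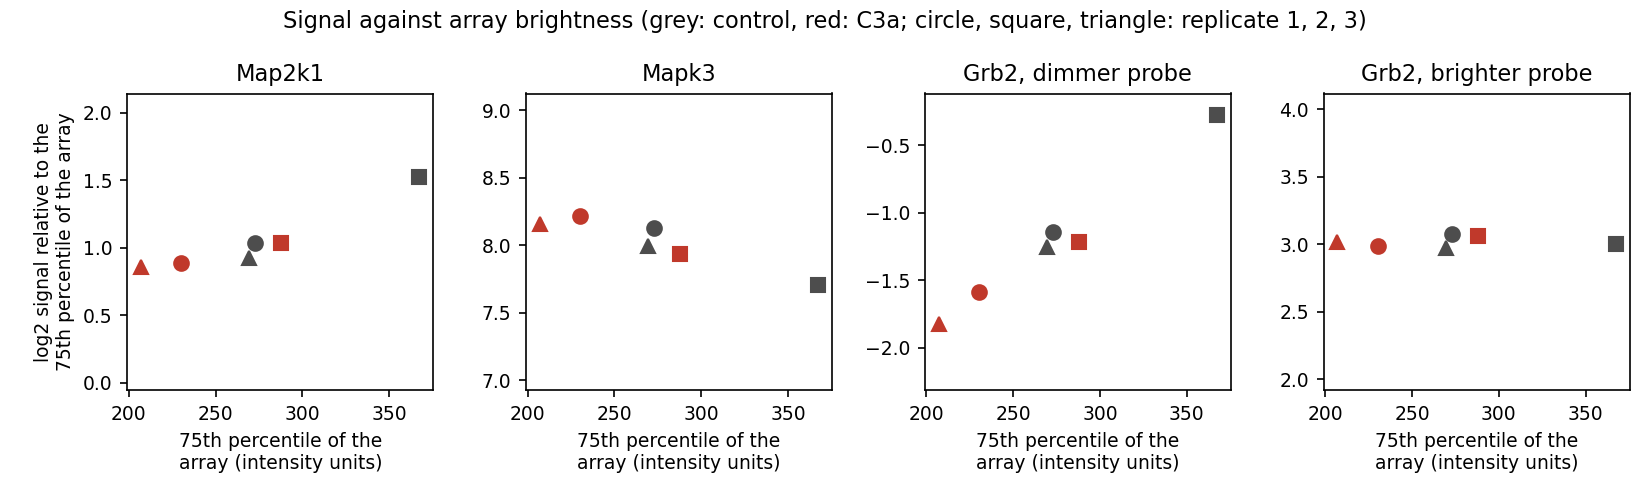
Log2 signal after scaling to the 75th percentile (vertical axis, same span in every panel) against that percentile in intensity units (horizontal axis) for Map2k1, Mapk3 and both Grb2 probes; grey is control, red is C3a, 1 point an array. Map2k1 and the dimmer Grb2 probe are highest on the brightest array, control replicate 2, and lowest on C3a replicate 3, Mapk3 is lowest on control replicate 2, and the brighter Grb2 probe stays between 2.97 and 3.07.

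Of the genes, 4 have a further, dimmer probe, and these probes did not all move like the brighter ones. For Grb2 the dimmer probe had a log2 signal of -1.14, -0.27 and -1.25 on control replicates 1 to 3 and -1.59, -1.22 and -1.82 on C3a replicates 1 to 3. It gave a log2 fold change of -0.65 (95% confidence interval -1.31 to 0.0065; unadjusted p = 0.0518 and adjusted p = 0.743 from limma), against 0.0033 for the brighter probe. The difference between the 2 Grb2 probes within an array was larger on every C3a array than on every control (exact permutation test of both sides, p = 0.1, the lowest that 3 against 3 can give; adjusted p = 0.2 over the 4 genes). This dimmer probe correlated with the brightness of the arrays at r = 0.98 (exact permutation p = 0.00417), with a rho of 0.94 and 0.92 without the 2 farthest arrays.

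The dimmer Map2k1 probe had a log2 signal of 0.21, 0.68 and 0.01 on control replicates 1 to 3 and -0.19, -0.02 and -0.35 on C3a replicates 1 to 3. All C3a arrays were below all controls, by a narrow margin for control replicate 3 against C3a replicate 2. Its log2 fold change was -0.48 (95% confidence interval -0.92 to -0.047; unadjusted p = 0.0344 and adjusted p = 0.743 from limma), and it correlated with array brightness at r = 0.95 (exact permutation p = 0.00556), with a rho of 0.83 and 0.67 without the 2 farthest arrays. Over the 6 arrays both Map2k1 probes ran together, at r = 0.95, whereas those of Grb2 did not, at r = 0.035. The difference between the Map2k1 probes was also larger on every C3a array than on every control (two-sided exact permutation test, p = 0.1; adjusted p = 0.2 over the 4 genes). The dimmer probes of Shc1 and Ptpn11 gave log2 fold changes of -0.11 and 0.21, with intervals that include 0. Counted over all 11 probes, 1 was lower and 0 were higher at an unadjusted p under 0.05 from limma, beside 2.48% lower and 3.34% higher (5.82% together) of the 23438 probes. All C3a arrays lay above the controls for 1 of 11 and below for 2 of 11, beside 8.04% and 4.46% (12.5% together). These shares, too, include probes that passed the filter through the C3a arrays alone, whereas all 11 were well above background on every array. No sequences of the probes were used here, and whether the probes read different transcripts was not tested.

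**Figure D3:**
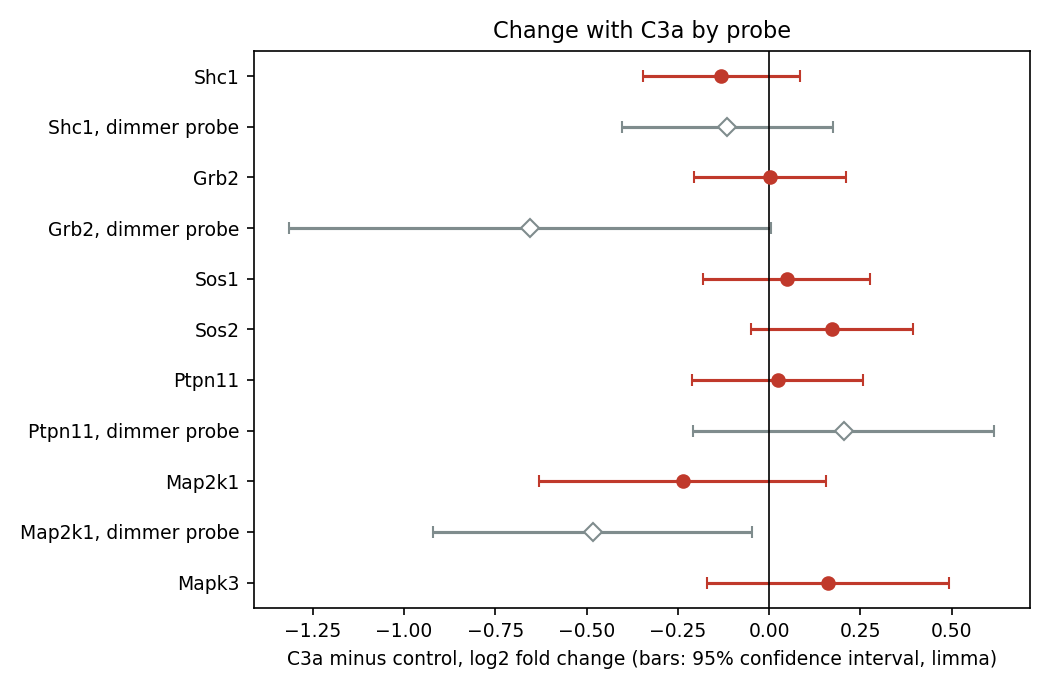
C3a minus control as log2 fold change (horizontal axis) with the 95% confidence interval from limma for each of the 11 probes of the 7 genes; filled circles are the probes that represent the gene, open diamonds the dimmer probes. Every representing probe has an interval that includes 0, and the dimmer Map2k1 probe is the exception among the 11.

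Along the rest of the route, 118 further genes were listed in 8 groups, from receptor tyrosine kinases to targets of ERK and the p38 and JNK branches. Of these, 109 had a probe and 92 passed the filter on dim probes, with 54 above 0, 38 below and a median log2 fold change of 0.037, beside 0.036 over all genes. At an unadjusted p under 0.05 from limma, 3 were higher and 1 was lower with C3a, that is 4 of 92 (4.35%), beside 2.91% higher and 2.43% lower over all genes, and at an adjusted p under 0.05 from limma 0 of 92 were called. Of the 3 higher genes, 2 passed the filter through the C3a arrays alone, where they were high, and so their direction is in part set by the filter. Among the 77 of these genes well above background on all 6 arrays, 1 was higher and 1 was lower. With the replicate numbers as pairs (replicate block), 13 of 92 were under the unadjusted threshold, beside 11.9% of all genes and 13.6% of all probes, and so were 0 of 7 members. The 3 C3a arrays lay above all controls for 9 genes and below for 1 (10.9% together), beside the 13.0% over all genes.

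Among the Ras proteins themselves, with 8 of 8 genes well above background on every array, 0 were under the unadjusted threshold. The log2 fold change was 0.0093 for Hras and -0.024 for Nras, each smaller than its standard error. A second, dim Nras probe was well above background on 2 controls and 0 C3a arrays, and so did not pass the filter. Its mean log2 signal was -3.74 in controls and -4.37 with C3a, with all C3a arrays below all controls. This probe was not part of the main fit. The other RAF, MEK and ERK kinases gave 0 of 8 with a median of -0.040. Araf, which encodes a Raf kinase, was at 0.059 and Map2k2 at 0.090. A second Araf probe gave -0.16 (unadjusted p = 0.257 from limma), so that the probes of Araf differed in sign.

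The other adaptors and docking proteins gave 0 of 11, the Ras exchange factors and GTPase activators 0 of 8, and the receptor tyrosine kinases 0 of 11 under the unadjusted threshold. The median log2 fold change was 0.058, 0.18 and -0.00067 in these groups. A second, dimmer probe of the receptor gene Igf1r gave -0.24 (unadjusted p = 0.0320 and adjusted p = 0.743 from limma). On this probe all C3a arrays lay below all controls. The brighter Igf1r probe, which stood for the gene, gave 0.14 (unadjusted p = 0.232 from limma), so that the probes differed in sign. The scaffolds and Raf regulators gave 1 higher and 1 lower of 16. Hsp90ab1, a chaperone that holds Raf kinases in their folded state, had a log2 fold change of 0.49 (standard error 0.11; unadjusted p = 0.00211 and adjusted p = 0.743 from limma), and its C3a arrays lay above all controls. A second Hsp90ab1 probe gave -0.024 (unadjusted p = 0.784 from limma), so that its probes disagreed. The brighter probe gave 0.17 without normalization and 0.045 with the spike-in probes. These 2 settings move all probes by 1 offset, to medians of -0.28 and -0.40, so that its distance from the median stayed the same. The unadjusted p of the brighter probe was over the threshold in these 2 of 19 alternatives. Cnksr1, a scaffold that binds Raf, was at -0.44 (standard error 0.16; unadjusted p = 0.0258 and adjusted p = 0.743 from limma), with overlapping groups, and its unadjusted p from limma was over the threshold when control replicate 1 or 2 or C3a replicate 1 or 3 was left out.

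Of the ERK substrates and effectors, 1 of 17 was under the threshold. Rps6ka6, which encodes a kinase of the RSK family, had a log2 fold change of 0.49 (standard error 0.15; unadjusted p = 0.0131 and adjusted p = 0.743 from limma). Of the p38 and JNK kinases, 1 of 13 was, Map2k7, which encodes an activator of JNK, at 0.89 (standard error 0.34; unadjusted p = 0.0336 and adjusted p = 0.743 from limma). Both probes were dim and well above background on 2 of 3 controls and on all 3 C3a arrays. They entered the test through the C3a group, so their p-values are no support for a higher level, and the control level rests in part on an array that did not measure them. The Map2k7 signal was -4.13 on control replicate 1 against -3.02 and -2.80 on the other controls. Its log2 fold change was 0.48 without control replicate 1, 0.37 with normexp and 1.27 with quantile normalization. The unadjusted p from limma in these settings was 0.0280, 0.00718 and 0.103. For Map2k7 the unadjusted p was over the threshold in 10 of 18 alternatives, among them the omission of any C3a array (0.0530 to 0.111 from limma). A second, dimmer probe of Map2k3, in the same group of kinases, gave -0.54 (unadjusted p = 0.0248 and adjusted p = 0.743 from limma). This Map2k3 probe was well above background on every array, and all C3a arrays lay below all controls. The brighter Map2k3 probe, which stood for the gene, gave -0.083 (unadjusted p = 0.378 from limma).

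**Figure D4:**
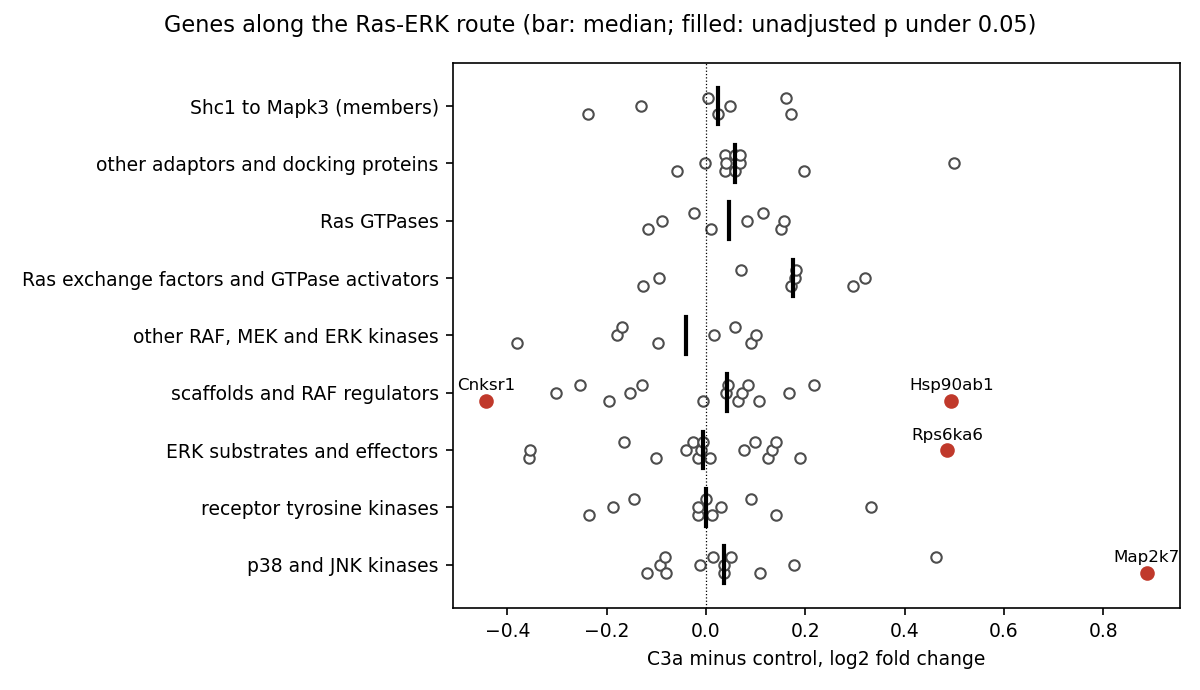
C3a minus control as log2 fold change (horizontal axis) for the 7 genes and the 8 groups of further genes; each point is a gene, filled red with its name at an unadjusted p under 0.05 from limma, and black bars are group medians. The medians lie between -0.04 and 0.18, and 4 of 92 further genes are named.

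The members differed in how steady they were. The SD within a group, pooled over both groups, was 0.045 for Grb2, 0.056 for Shc1, 0.070 for Sos2, 0.079 for Sos1 and 0.086 for Ptpn11, all below the median of 0.14 over the genes. It was 0.18 for Mapk3 and 0.24 for Map2k1, above that median. Their patterns over the 6 arrays also differed, and Map2k1 and Mapk3 ran in opposite directions (r = -0.88). Among 8552 genes well above background on all arrays, the pattern most like that of Map2k1 was that of Pip4p2 and Sppl3 (both r = 0.997, log2 fold changes -0.26 and -0.27). For Mapk3 it was Elp5 and Pdk4, for Sos2 C20h6orf136 and Btbd9 (r between 0.997 and 0.999), for Sos1 Klhl23 and Dync1li2, for Ptpn11 Acyp2 and Itgb3bp, for Shc1 Mtm1 and Srsf7, and for Grb2 Ccdc61 and Zswim4 (r between 0.95 and 0.99). With 6 arrays that share brightness and so many genes to choose from, such values describe these arrays only.

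For Grb2, Ptpn11 and Mapk3 the direction depended on how the arrays were scaled. Shc1 was below 0 under every scaling run, from -0.58 with the spike-in probes to -0.13. Map2k1 was too, unless array brightness entered as a covariate (0.035). Sos2 was above 0 except without normalization (-0.15) and with the spike-in probes (-0.28), where every probe is moved by the same amount and the median of all kept probes was at -0.28 and -0.40. Distances from that median are therefore fixed by construction at the values of the 75th percentile scaling, 0.12 for Sos2, 0.00013 for Sos1 and -0.18 for Shc1. Sos1 was below 0 only in these 2 of the scalings. Mapk3 was at -0.017 after quantile normalization and 0.0090 after loess, and for Grb2, Ptpn11 and Sos1, all close to 0, no direction is given. Without normalization, 1 of 7 members, Map2k1, was under the unadjusted threshold in limma, with an adjusted p of 0.447 from limma. In that setting 1125 of 10386 genes were under it, 1116 of them lower, so that the count is no result about Map2k1. In the marker lists, which were read beside these values, 1 of 9 fibroblast markers, Lum, was under the unadjusted threshold in limma, beside 5.33% of all genes. Its log2 fold change was -0.54, the lowest of the 9, whose median was -0.050 with 2 above 0 and 7 below. The smallest adjusted p among the 9 was 0.743 from limma. Of the cardiomyocyte, endothelial, macrophage, smooth muscle and proliferation markers, 0 were under the unadjusted threshold. In bulk RNA, fewer cells of a type and less RNA per cell cannot be told apart.

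**Figure D5:**
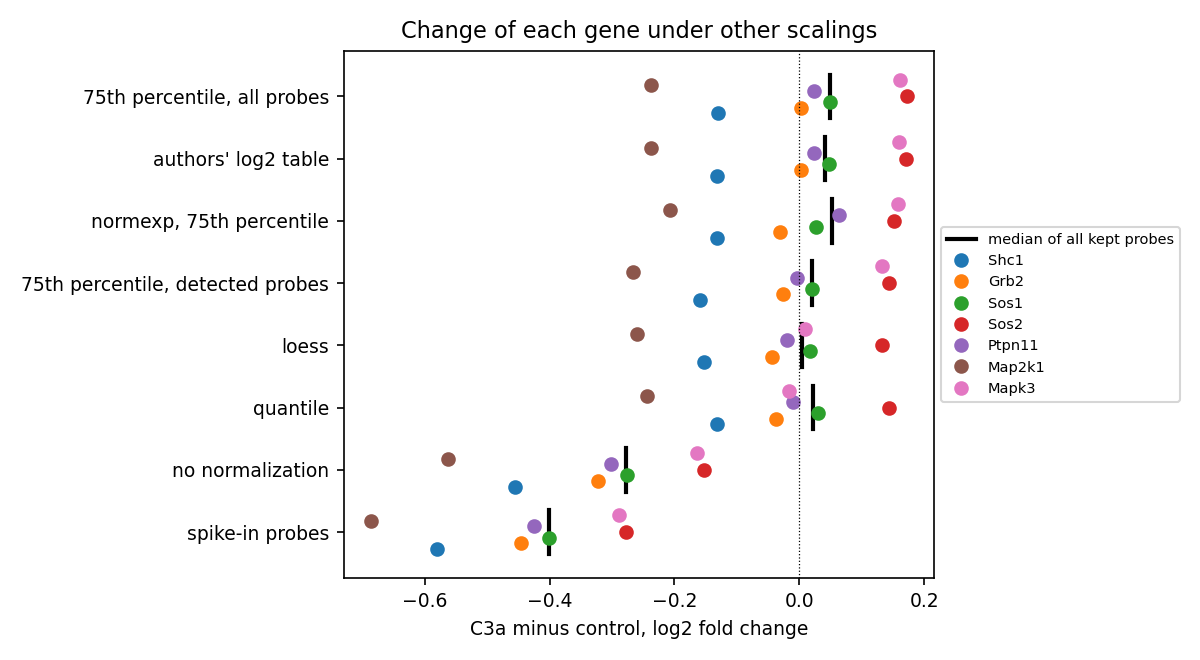
C3a minus control as log2 fold change (horizontal axis) for the 7 genes (colours) under 8 scalings of the same arrays (rows); black bars mark the median of all kept probes. Shc1 and Map2k1 lie below the bar and Sos2 above it in these 8 rows, of which the rows for the 75th percentile over all and over detected probes, no normalization and spike-in probes share their distances by construction. The fit with brightness as a covariate, where Map2k1 is at 0.035, is not drawn.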

How the data were processed

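Total RNA of 3 control and 3 C3a cultures was labelled with Cy3 and hybridised to Agilent 1-colour arrays. Per the file headers, the intensity values were background-corrected by the authors with Agilent Feature Extraction 11.5.1.1. The log2 table that the authors deposited differed from the scaled intensities by a near constant (r at least 0.99999) and was an alternative. The processed intensity was scaled to the 75th percentile of its array and log2-transformed. Probes were kept when well above background on all 3 arrays of a condition (23438 of 45572), named through their accession in the GRCr8 gene table (46.3% matched) and tested with limma 3.58.1 (R 4.3.3), with Benjamini-Hochberg adjustment over all kept probes. In simulated data, 127 of 200 changed probes were recovered with 8 others called. Recovery at the size of the members' changes, at most 0.24 in size on the log2 scale, was not tested. The counts above give no measure of it. Samples with the same replicate number deviated together (correlations 0.28, 0.32 and 0.31), and the numbers were taken from the titles. Samples with different numbers gave correlations from -0.26 to -0.093. Each group was first centred on its own mean, so that positive values for equal numbers make the others negative on balance. The negative values are therefore no separate evidence for the pairing. The main limma fit and the permutation tests of the groups did not use this pairing. Further genes were named when under an unadjusted p of 0.05 or when a Ras, Raf, MEK or ERK gene, except some that are not reported here. Members and lists were chosen with earlier results of these data known. The methods' normalization was not given in the sources used here. The number of arrays limits precision.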

Additional observations from a re-analysis of the deposited data

How the results depend on the processing

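No member was called at an adjusted p under 0.05 from limma under any of 19 alternatives, and the replicate block (pairing by number) changed no member's call. The probes called rose from 0 to 4 without normalization and 16 with spike-in scaling. At an unadjusted p under 0.05 the 1364 probes became 2599 without normalization, 3198 with the replicate block and 660 with array brightness as a covariate, and 709 to 2139 when 1 array was left out. The members became 1 without normalization, beside 1125 of 10386 genes, and 2 with the methods' test, beside 512. The 4 pathway genes became 7 without normalization, 2 with the filter on all 6 arrays, 13 with the replicate block and 2 to 7 when 1 array was left out. The share of higher probes among these calls was 57.4%, and 1.58% without normalization, 43.8% with the percentile over detected probes, 0.53% with spike-in scaling, 43.0% with loess, 36.7% with the filter on all 6 arrays and 34.7% with no filter.

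Signs turned as follows on the log2 scale. No normalization and spike-in scaling move all probes by 1 offset (median -0.28 and -0.40), which by construction leaves each distance from the median as it was. Without normalization Grb2 was at -0.32, Sos1 at -0.28, Sos2 at -0.15, Ptpn11 at -0.30, Mapk3 at -0.16, Araf at -0.27, Hras at -0.32 and Map2k2 at -0.24. With spike-in scaling these were -0.45, -0.40, -0.28, -0.43, -0.29, -0.39, -0.44 and -0.36. For the settings that follow, the cause was not tested. With quantile normalization Grb2 was at -0.037, Ptpn11 at -0.011, Mapk3 at -0.017 and Hras at -0.027. With the percentile over detected probes, also 1 offset per array (median 0.020), Grb2 was at -0.025, Ptpn11 at -0.0046 and Hras at -0.019. With loess, chosen after seeing the data, Grb2 was at -0.044, Ptpn11 at -0.020 and Hras at -0.038. Grb2 was at -0.030 with normexp and -0.65 on its other probe. With array brightness as a covariate, also chosen after seeing the data, Map2k1 was at 0.035 and Mapk3 at -0.056. With 1 array left out, Grb2 ran from -0.018 to 0.032, Sos1 from -0.012 to 0.082, Ptpn11 from -0.024 to 0.080, Hras from -0.060 to 0.11, Map2k2 from -0.00085 to 0.18 and Nras from -0.057 to 0.015. Probes near background limit the levels of Map2k7 and Rps6ka6.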
